A study of Rattus norvegicus with 9 samples.

Results

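*Jak1*, *Jak2*, *Stat3*, *Stat5a*, *Stat5b*, *Stat6*, *Socs1*, *Socs2*, *Socs3* and *Cish* were examined in rat aortic smooth muscle cells (RASMC) with their sodium pump blocked. These 10 genes of the JAK-STAT pathway and its feedback were picked by name, by a rule that uses no measured value, though with earlier results of these data known. Each was measured by 1 probe set, and they stand among 14324 genes with a probe set of a single symbol and among 27342 probe sets in all.

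Janus kinases (JAKs) sit on the inner side of cytokine receptors and phosphorylate tyrosines when a cytokine draws the receptor chains together. STAT proteins dock there, are phosphorylated, pair up and enter the nucleus, where they switch on genes that often carry a TTCNNNGAA palindrome. SOCS proteins and CISH (the founding member of the SOCS family) are made from such genes, bind the receptor or the kinase and shut the signal down, so that their mRNAs serve as a common readout of cytokine signaling. In vascular smooth muscle the pathway is known for its part in the response to interleukin-6 and to interferons, and in injury-driven growth.

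RNA came from quiescent RASMC kept for 6 hr in control DMEM, in DMEM with 3 mM ouabain or in K+-free DMEM, with 3 Affymetrix Rat Gene 1.0 ST arrays per condition. Ouabain, a plant glycoside, inhibits Na+,K+-ATPase from the outer side of the membrane, whereas K+-free DMEM (K+-free medium in the plots) stops the same pump for want of the ion that it carries inward. All cells, controls included, had been starved of serum beforehand and washed with K+-free medium. The cells were bought and used at low passage, the arrays come from 3 independent experiments in which control and treatments ran side by side, and p-values refer to the spread between arrays of a condition.

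Values are log2 signals: a difference of 1 on this scale is a 2-fold change. Levels of different probe sets are not compared gene by gene, only as a rough place against the median or percentile of all probe sets. Array medians lay between 6.76 and 6.80. Changes were tested with limma over all probe sets and said to rise or fall at a Benjamini-Hochberg adjusted p under 0.05 together with a fold above 1.2. Smooth muscle markers were present, with 7 of 8 measured above the median probe set, and their mean log2 signal was 10.39 to 10.42 on control arrays, 9.91 to 10.01 in ouabain and 10.04 to 10.07 in K+-free DMEM. Of these 8 markers, 6 fell in ouabain and 3 in K+-free DMEM. In RNA from whole dishes, fewer cells of a type and less RNA per cell cannot be told apart. Of 9 macrophage and leukocyte markers 3 lay above the median (*Cd68*, *Cd14* and *Cd74*), while the defining marker *Ptprc* stood at percentile 19.1 of the probe sets. The mean of the 9 was 6.19 to 6.23 on control arrays, 6.63 to 6.65 in ouabain and 6.49 to 6.56 in K+-free DMEM, with 3 and 4 of them called higher. None of 5 lymphocyte markers and 1 of 6 endothelial markers lay above the median, with list means of 5.51 to 5.75 and 5.80 to 6.05 over the arrays. Of 7 fibroblast markers 5 lay above it, and their mean was 10.28 to 10.33, 10.39 to 10.45 and 10.57 to 10.60 in control, ouabain and K+-free arrays. The part of these markers in the results on JAK, STAT and SOCS genes was not tested.

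In both treatments *Stat3*, *Socs1*, *Socs3* and *Jak1* rose above control and *Stat5a*, *Stat5b* and *Stat6* fell below it. *Cish*, *Jak2* and *Socs2* rose in K+-free DMEM and did not pass the test in ouabain. Ouabain thus raised 4 of the 10 genes and lowered 3, against 15.8% of all probe sets raised and 16.8% lowered. K+-free DMEM raised 7 and lowered 3, where 16.1% of all probe sets rose and 17.9% fell. Arrays of ouabain and control did not overlap for 7 of the genes in ouabain, beside 54.2% of all probe sets, and those of K+-free DMEM and control for all 10, beside 57.1%. The median log2 difference over the 10 genes was 0.02 in ouabain and 0.72 in K+-free DMEM, and over all probe sets it was 0.07 and 0.06. The control arrays are shared by both comparisons, so the 2 sets of differences are not independent of each other. Centring the arrays on *B2m*, the reference gene used for RT-PCR in this study, moved the median of all probe sets by -0.15 in ouabain and -0.16 in K+-free DMEM. The mean of 11 reference genes, *B2m* among them, moved it less, by -0.08 and -0.05. On the *B2m* scale 6 and 9 of the 10 genes were called, with *Jak1* missing each time and no called gene turning its direction. Of all probe sets, 2166 then rose and 6223 fell in ouabain, where 4312 and 4583 had done so, and 2375 rose and 7059 fell in K+-free DMEM, in place of 4391 and 4890.

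**Figure D1:**
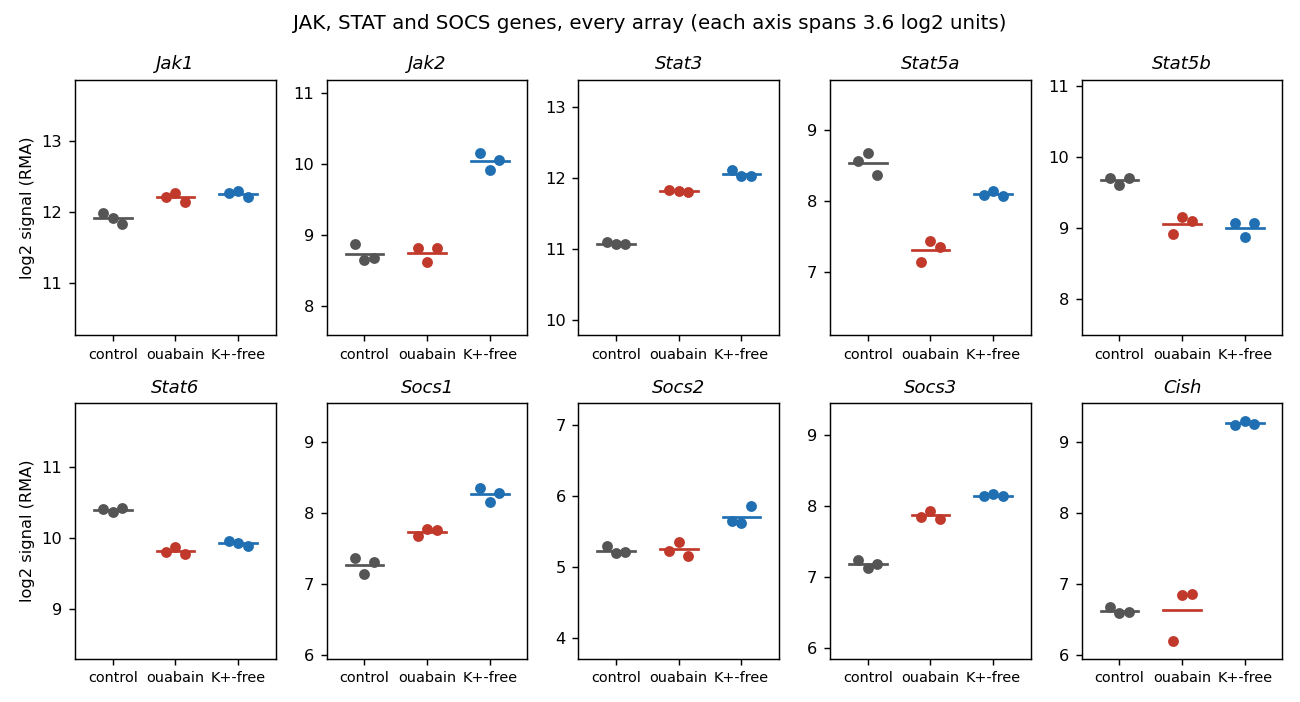
Log2 signal (RMA) of each of the 10 genes on the 9 arrays, with a point per array, a bar at the mean of 3 arrays and an axis of equal span in every panel. *Cish* on the K+-free arrays (9.23 to 9.29) lies farthest from its control arrays (6.59 to 6.67), whereas *Stat5a*, *Stat5b* and *Stat6* lie below control in both treatments.

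The kinase genes *Jak1* and *Jak2* parted from each other. JAK1 works with the receptors of interleukin-6 and of interferons, and JAK2 with those of growth hormone, erythropoietin, GM-CSF and interferon gamma. The log2 signal of *Jak2* was 8.88, 8.65 and 8.68 on the control arrays, 8.82, 8.63 and 8.83 in ouabain and 10.16, 9.92 and 10.06 in K+-free DMEM. Ouabain and control arrays overlapped, and every K+-free array stood above all 6 others. *Jak2* rose by 1.31 (log2) in K+-free DMEM (SE 0.085, 2.48-fold, limma adjusted p = 2.31e-07). In ouabain the difference was 0.02 with a 95% interval of -0.17 to 0.21 (adjusted p = 0.864), and the treatments themselves differed by 1.29 (adjusted p = 1.64e-06). After quantile normalization the ouabain difference of *Jak2* was 0.23 (limma adjusted p = 0.043), which is under the fold limit.

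*Jak1* gave log2 signals of 11.99, 11.92 and 11.84 in control, 12.22, 12.27 and 12.14 in ouabain and 12.27, 12.29 and 12.21 in K+-free DMEM. Treated arrays of either kind lay above all control arrays and overlapped with each other. The rise was small, 0.30 in ouabain (1.23-fold, adjusted p = 0.0015) and 0.35 in K+-free DMEM (1.27-fold, adjusted p = 0.000472). It sits close to the fold limit, and the call was lost in both treatments on the *B2m* scale, where the differences were 0.14 and 0.19. In ouabain it was lost as well without Control replicate 3 (0.26), after quantile normalization (0.25) and on the scale of the reference genes (0.22). Between the treatments *Jak1* differed by 0.05 (95% interval -0.08 to 0.18, adjusted p = 0.671).

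*Stat3*, which carries the signal of interleukin-6 and LIF, was raised by each treatment. Its log2 signal was 11.09, 11.06 and 11.07 in control, 11.83, 11.82 and 11.81 in ouabain and 12.11, 12.02 and 12.02 in K+-free DMEM. The groups were fully separated, in the order control, ouabain and K+-free DMEM. *Stat3* rose by 0.74 in ouabain (SE 0.048, 1.68-fold, adjusted p = 2.47e-07) and by 0.98 with K+-free DMEM (1.97-fold, adjusted p = 2.82e-08). The step between the treatments was 0.23 (adjusted p = 0.00439), which at 1.17-fold is under the fold limit.

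*Stat5a*, a transducer of prolactin, growth hormone and GM-CSF signals, gave 8.56, 8.68 and 8.37 in control, 7.14, 7.44 and 7.36 in ouabain and 8.08, 8.14 and 8.07 in K+-free DMEM. Again no group overlapped with another, but here ouabain lay farthest from control. *Stat5a* fell by 1.23 in ouabain (SE 0.091, 2.34-fold, adjusted p = 7.89e-07) and fell by 0.44 with K+-free DMEM (1.36-fold, adjusted p = 0.00207). The treatments differed by 0.79 (adjusted p = 9.45e-05), so that *Stat5a* was the only gene of the 10 whose fall in ouabain was deeper by the test of the difference. After quantile normalization the K+-free fall was 0.25 with an adjusted p of 0.0505 and no longer passed.

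*Stat5b*, the close paralog of *Stat5a* and the main growth hormone transducer in liver, gave 9.70, 9.60 and 9.70 in control, 8.91, 9.15 and 9.09 in ouabain and 9.06, 8.87 and 9.07 in K+-free DMEM. Both treatments lay below control and overlapped with each other. *Stat5b* fell by 0.62 in ouabain (SE 0.078, adjusted p = 5.36e-05) and by 0.66 with K+-free DMEM (adjusted p = 2.81e-05), and the treatments differed by -0.04 (95% interval -0.22 to 0.13). The *Stat5a* and *Stat5b* transcripts are alike in sequence, and whether the probes of either bind the transcript of the other was not tested. The paper on these arrays lists *Stat5*, with no paralog named, among factors without a significant change in expression. *Stat5b*, *Stat5a* and *Stat3* follow each other as adjacent protein-coding genes on rat chromosome 10 (RefSeq, GRCr8), *Stat5a* on the forward strand and the other two on the reverse strand.

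*Stat6*, which carries the signals of interleukin-4 and interleukin-13, gave 10.40, 10.37 and 10.42 in control, 9.81, 9.88 and 9.76 in ouabain and 9.95, 9.93 and 9.89 in K+-free DMEM. The groups did not overlap, ouabain being lowest. *Stat6* fell by 0.58 in ouabain (SE 0.051, adjusted p = 2.88e-06) and by 0.47 with K+-free DMEM (1.39-fold, adjusted p = 1.35e-05). Although their arrays stood apart, the treatments differed by 0.11 only (95% interval -0.01 to 0.22, adjusted p = 0.191).

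Of the feedback genes, *Socs1* and *Socs3* rose in both treatments and rose further in K+-free DMEM. SOCS1 blocks the JAK kinases directly and restrains interferon signals, whereas SOCS3 binds gp130, the shared chain of the interleukin-6 receptors. The log2 signal of *Socs1* was 7.37, 7.14 and 7.31 in control, 7.68, 7.78 and 7.76 in ouabain and 8.35, 8.16 and 8.28 in K+-free DMEM. For *Socs3* it was 7.24, 7.12 and 7.19 in control, 7.84, 7.93 and 7.82 in ouabain and 8.14, 8.16 and 8.14 in K+-free DMEM. In either gene the groups stood apart, with control lowest and K+-free DMEM highest.

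*Socs1* rose by 0.47 in ouabain (SE 0.072, 1.38-fold, adjusted p = 0.000265) and by 0.99 with K+-free DMEM (1.99-fold, adjusted p = 5.49e-07). *Socs3* rose by 0.68 (SE 0.053, 1.60-fold, adjusted p = 1.08e-06) and by 0.96 (1.95-fold, adjusted p = 6.43e-08). K+-free DMEM exceeded ouabain by 0.53 in *Socs1* (adjusted p = 0.000289) and by 0.28 in *Socs3* (1.21-fold, adjusted p = 0.0025). The latter call rests on the fold limit: without Ouabain replicate 3 the difference was 0.26 and did not pass.

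*Socs2*, a brake on growth hormone signaling, was a dim probe set at percentile 9.35 of all. It gave 5.29, 5.19 and 5.21 in control, 5.22, 5.36 and 5.15 in ouabain and 5.65, 5.61 and 5.85 in K+-free DMEM. Ouabain and control overlapped, and the K+-free arrays lay above both. *Socs2* rose by 0.47 in K+-free DMEM (SE 0.075, 1.39-fold, adjusted p = 0.000323), and in ouabain the difference was 0.02 (95% interval -0.15 to 0.18, adjusted p = 0.877). K+-free DMEM exceeded ouabain by 0.46 (adjusted p = 0.00106), which the methods' t-test did not call after Benjamini-Hochberg adjustment (adjusted p = 0.0601).

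*Cish* showed the largest rise of the 10 genes, and it did so in K+-free DMEM. CISH, induced through STAT5, covers the docking sites of STAT5 on the receptors of growth hormone, erythropoietin and interleukin-2. Its log2 signal was 6.67, 6.59 and 6.60 in control, 6.19, 6.84 and 6.85 in ouabain and 9.23, 9.29 and 9.26 in K+-free DMEM. The ouabain arrays lay on both sides of control, with an SD of 0.38 in place of 0.04 in control and 0.03 in K+-free DMEM. *Cish* rose by 2.64 in K+-free DMEM (95% interval 2.33 to 2.96, 6.24-fold, adjusted p = 5.78e-08), and 0.190% of all probe sets changed by more. In ouabain the difference was 0.01 (95% interval -0.31 to 0.32, adjusted p = 0.970). Without Ouabain replicate 1 it was 0.23 (limma adjusted p = 0.0103), which is under the fold limit. K+-free DMEM exceeded ouabain by 2.63 (6.20-fold, adjusted p = 4.00e-07).

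The promoter sequence of *Cish* is shown because of its STAT-type palindromes, and a stretch of the *Socs1* promoter because it holds the only other match among these genes. RefSeq promoter windows (GRCr8) running from 250 bases before to 50 bases after the start of transcription were at hand for 8 of the 10 genes, all but *Jak1* and *Socs2*. They were searched for TTCNNNGAA, which reads the same on both strands, and for TTCNNNNGAA, the wider spacing known for STAT6. *Cish* holds 4 matches of the former, which begin 241, 230, 136 and 119 bases before the start. *Socs1* holds 1, which begins 196 bases before the start. The stretches lie at chr8:116850719-116850868 and chr10:5389364-5389403 (GRCr8), both upstream of their genes and on the forward strand, and the matches are in capitals:
Cish: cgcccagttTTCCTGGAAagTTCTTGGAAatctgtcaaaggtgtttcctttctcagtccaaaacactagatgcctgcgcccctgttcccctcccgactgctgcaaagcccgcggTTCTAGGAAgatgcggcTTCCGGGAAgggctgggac
Socs1: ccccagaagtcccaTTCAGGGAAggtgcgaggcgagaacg

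Windows of *Jak2*, *Stat3*, *Stat5a*, *Stat5b*, *Stat6* and *Socs3* held no TTCNNNGAA. Of 33469 rat promoter windows of this length, 2970 (8.87%) hold at least 1 and 2 (0.0060%) hold 4 or more. TTCNNNNGAA occurred in none of the 8 windows and in 2435 (7.28%) of all. A match is a run of letters and not a measured binding site, and its absence says nothing of sites elsewhere.

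**Figure D2:**
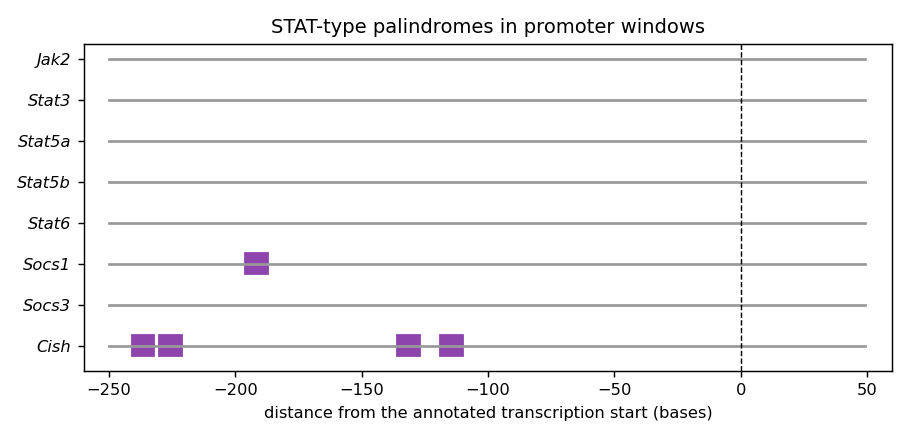
Position of TTCNNNGAA matches in the promoter windows of 8 genes, in bases from the annotated start of transcription (dashed line), with each window as a grey line and each match as a box drawn to scale. *Cish* carries 4 boxes between 241 and 119 bases before the start, *Socs1* carries 1 and the other 6 windows carry none.

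K+-free DMEM and ouabain were also set against each other directly. K+-free DMEM exceeded ouabain in 6 of the 10 genes (*Jak2*, *Stat5a*, *Socs1*, *Socs2*, *Socs3* and *Cish*) and fell below it in 0, where 8.45% of all probe sets were higher and 7.97% lower. That 0 came from limma and was the same at an unadjusted p under 0.05 and by the methods' t-test. Arrays of the 2 treatments did not overlap in 8 of the 10, all but *Jak1* and *Stat5b*, beside 32.4% of all probe sets. The median difference was 0.37 over the 10 genes and -0.01 over all probe sets. All 4 feedback genes were among the 6, with differences of 0.28 to 2.63.

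**Figure D3:**
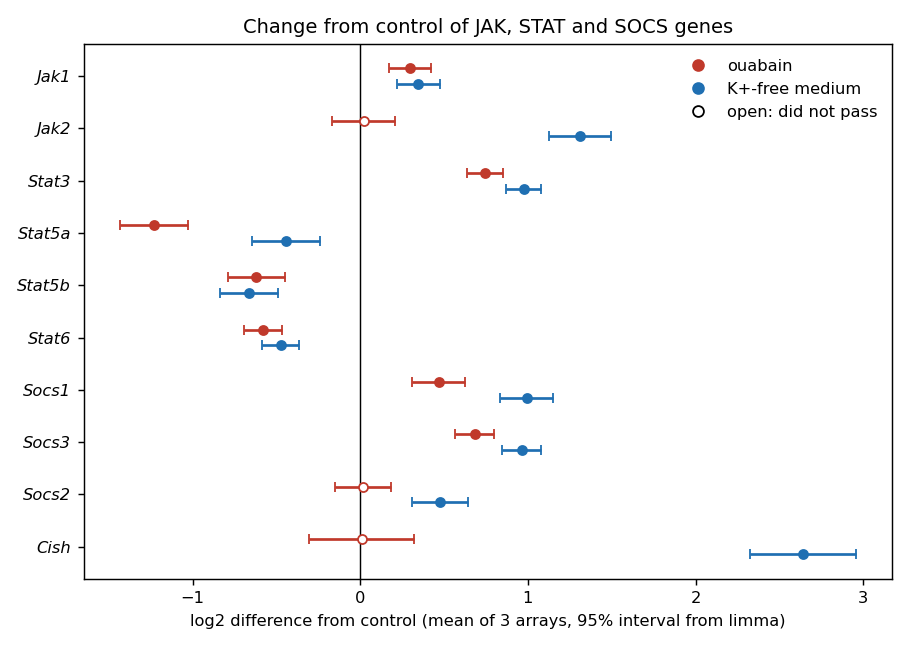
Log2 difference from control of the 10 genes in ouabain and in K+-free DMEM, each the mean of 3 arrays with its 95% interval from limma, open where the test was not passed. The intervals of *Jak2*, *Socs2* and *Cish* in ouabain span 0, and those of *Stat5a*, *Stat5b* and *Stat6* lie below 0 in both treatments.

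For the 3 genes whose group means ranged most widely, the genes most alike over the 9 arrays were looked up, by root mean square distance of the log2 signals after subtraction of the control mean. *Cish* had no gene within 0.2, and nearest to it were *Cyria*, which encodes a Rac1-binding protein (distance 0.20), the chemokine *Ccl9* (0.21) and *Nfkbie*, an inhibitor of NF-κB (0.23). The distance is not scaled to the range or spread of a gene, and the ouabain arrays of *Cish* had an SD of 0.38. *Jak2* had 19 genes within 0.2, led by the lectin *Clec2g* (0.11), the lysyl oxidase relative *Loxl4* (0.13) and the PDGF receptor *Pdgfra* (0.13). For *Stat5a* there were 68, led by the tRNA-modifying enzyme *Dus2* (0.088), *Kctd13* (0.11) and *Zc3h6* (0.12). *Dus2* fell by 1.24 in ouabain and by 0.35 with K+-free DMEM, beside 1.23 and 0.44 for *Stat5a*. Those nearest to *Cish* rose by 2.42 to 2.84 in K+-free DMEM and did not pass the test in ouabain, with differences of 0.08 to 0.14.

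The gene lists around the pathway are given by counts, to be read against the shares of all probe sets above: 15.8% raised and 16.8% lowered in ouabain, and 16.1% raised and 17.9% lowered in K+-free DMEM. Of 31 cytokines that signal through JAK kinases, 8 rose and 2 fell in ouabain, 9 rose and 1 fell in K+-free DMEM, and 7 were higher and 1 lower in K+-free DMEM than in ouabain. Those called in either direction came close to the share among all probe sets in each treatment. On the *B2m* scale these counts of rises and falls were 4 and 3, 6 and 2, and 7 and 1. *Il6*, which acts through gp130, JAK1 and STAT3, gave 9.27, 9.11 and 9.01 in control, 9.86, 9.93 and 9.71 in ouabain and 11.94, 11.99 and 11.87 in K+-free DMEM. The groups stood apart, with a rise of 0.70 in ouabain (adjusted p = 1.86e-05) and of 2.80 in K+-free DMEM (adjusted p = 6.48e-10). *Csf3*, the granulocyte growth factor, rose by 2.39 in K+-free DMEM (adjusted p = 1.15e-08), with a difference of 0.19 in ouabain (adjusted p = 0.154). *Csf2* (GM-CSF, whose receptor signals through JAK2 and STAT5) and *Lif* exceeded ouabain by 4.82 and 2.87 in K+-free DMEM. Against control, *Lif* also rose in ouabain, by 1.32 (limma adjusted p = 3.91e-08), while *Csf2* differed by 0.04 there (adjusted p = 0.693). Signals of *Csf2* were dim in control (5.14 to 5.38) and ouabain (5.21 to 5.41), below the array medians. Those of *Csf3* were so too, at 5.37 to 5.56 and 5.52 to 5.79. The median log2 difference of the 31 was 0.15 in ouabain and 0.18 in K+-free DMEM.

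Among 30 measured receptor chains that bind JAK kinases, *Il6r* and *Osmr* rose in both treatments, and *Ifngr2* fell in ouabain and rose in K+-free DMEM. In ouabain 5 rose and 6 fell, close to the shares among all probe sets, in K+-free DMEM 10 rose and 3 fell, and the *B2m* scale gave 4 and 6, and 7 and 4. K+-free DMEM exceeded ouabain in 9 and lay below it in 1, and the median difference from control was 0.09 in ouabain and 0.18 in K+-free DMEM. *Il6r*, the ligand-binding chain for interleukin-6, gave 7.42, 7.32 and 7.42 in control, 9.53, 9.57 and 9.45 in ouabain and 10.17, 10.13 and 10.10 in K+-free DMEM. With no overlap between groups, it rose by 2.13 (adjusted p = 1.32e-09) and 2.75 (adjusted p = 7.32e-11). *Osmr*, the oncostatin M chain, rose by 1.00 and 1.70.

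*Ifngr2*, the JAK2-binding chain of the interferon gamma receptor, gave 10.10, 10.16 and 10.13 in control, 9.74, 9.73 and 9.69 in ouabain and 11.30, 11.48 and 11.24 in K+-free DMEM. Ouabain arrays lay below control and K+-free arrays above it, with a fall of 0.41 (adjusted p = 0.000272) and a rise of 1.21 (adjusted p = 4.62e-08). Its partner *Ifngr1*, named here after its values were seen, fell by 0.29 and rose by 0.90. *Il10rb*, a chain of the interleukin-10 and related receptors, fell by 1.27 in ouabain (adjusted p = 8.35e-09), and its difference in K+-free DMEM was -0.20, under the fold limit. gp130 itself (*Il6st*, also named after its values were seen) rose by 0.66 in K+-free DMEM (adjusted p = 9.15e-07), and its 95% interval in ouabain was -0.11 to 0.11 (adjusted p = 0.987).

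Of the other JAK, STAT and SOCS genes 6 were measured. In each treatment 2 rose and 1 fell, or 1 and 2 on the *B2m* scale, and none was called between the treatments, where *Stat2*, *Stat4* and *Socs4* passed the adjusted p in limma but not the fold limit, the median differences from control being 0.12 and 0.09. *Stat2*, which carries the type I interferon signal, gave 9.27, 9.25 and 9.19 in control, 7.11, 7.12 and 7.14 in ouabain and 7.40, 7.30 and 7.28 in K+-free DMEM. All treated arrays lay below control, and *Stat2* fell by 2.11 in ouabain (adjusted p = 1.17e-09) and fell by 1.91 with K+-free DMEM (adjusted p = 5.49e-10). *Socs4* rose by 0.34 and 0.58 and *Socs5*, which restrains interleukin-4 and EGF receptor signals, by 0.47 and 0.40.

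Other regulators of the pathway, which comprise PIAS proteins, tyrosine phosphatases and adaptors, rose more often than they fell. Of 13 measured, 8 rose and 1 fell in ouabain, 7 rose and 0 fell in K+-free DMEM, and K+-free DMEM exceeded ouabain in 4 and lay below it in 1. *Pias2* (-0.21) and *Pias3* (-0.23) passed the adjusted p in K+-free DMEM in limma but not the fold limit. The *B2m* scale gave 4 and 3 in ouabain and 7 and 2 in K+-free DMEM, and the median differences were 0.36 and 0.55. *Ptpn1*, the phosphatase PTP1B that dephosphorylates JAK2, gave 10.43, 10.44 and 10.42 in control, 10.89, 10.92 and 10.74 in ouabain and 11.60, 11.60 and 11.56 in K+-free DMEM. The groups did not overlap, and it rose by 0.42 (adjusted p = 9.6e-05) and 1.15 (adjusted p = 2.88e-08). *Ptpn2*, which acts on JAK1 and STAT proteins, rose by 0.37 and 0.75, the adaptor *Stam* by 0.77 and 0.93 and the ubiquitin ligase *Cblb* by 0.90 and 0.91.

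Textbook target genes of STAT3, STAT5 and STAT6 were counted by the STAT they are best known for. Many answer to other factors too, and *Pim1*, *Bcl2l1* and *Ccnd1* stand in the lists of both STAT3 and STAT5. Of 14 STAT3 targets measured, 9 rose and 1 fell in ouabain (4 and 1 on the *B2m* scale), 9 rose and 0 fell in K+-free DMEM (8 and 0), and 7 were higher in K+-free DMEM than in ouabain. The survival kinase *Pim1* gave 10.01, 10.07 and 9.99 in control, 10.90, 10.98 and 10.83 in ouabain and 11.70, 11.83 and 11.67 in K+-free DMEM. Its groups stood apart, with rises of 0.88 (adjusted p = 5.22e-07) and 1.71 (adjusted p = 3.82e-09). *Bcl2l1*, which encodes the survival protein BCL-XL, rose by 0.83 and 1.14. *Lbp*, which presents endotoxin to cells, rose by 1.33 in K+-free DMEM, and *Junb* was higher there than in ouabain by 1.32. With single arrays left out, *Junb* lay 0.29 to 0.47 above control in ouabain and *Lbp* 0.21 to 0.29. With all arrays the ouabain difference of *Lbp* was under the fold limit and was not called.

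Of 8 STAT5 targets, 5 rose with ouabain and 6 with K+-free DMEM (3 and 4 on the *B2m* scale), while 0 fell in limma, at an unadjusted p under 0.05 too. Among those that rose in both treatments were *Pim1*, *Bcl2l1* and *Ccnd1*, which the STAT3 list shares, and *Bcl6*. Whether these counts reflect STAT5 activity, *Stat5a* and *Stat5b* having fallen, was not tested. *Bcl6*, a transcriptional repressor that STAT5 is known to lower in liver and lymphoid cells, gave 9.36, 9.35 and 9.27 in control, 10.81, 10.96 and 10.81 in ouabain and 11.49, 11.50 and 11.45 in K+-free DMEM. Every treated array lay above control, by 1.53 in ouabain (adjusted p = 6.19e-09) and by 2.15 with K+-free DMEM (adjusted p = 5.05e-10). The rise of *Bcl6* is opposite in direction to that known effect of STAT5, and the counts above went by direction of change alone. *Ccnd1*, cyclin D1, rose by 0.36 and 0.59.

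Of 9 STAT6 targets measured, 3 rose and 2 fell in ouabain (0 and 2 on the *B2m* scale), and 2 rose and 1 fell in K+-free DMEM. The share called in either direction in K+-free DMEM was close to that among all probe sets. *Arg1*, an arginase of alternatively activated macrophages, fell by 0.59 in ouabain (adjusted p = 2.01e-05) and by 0.60 with K+-free DMEM (adjusted p = 1.59e-05). The chemokines *Ccl17* and *Ccl22* rose by 0.47 and 0.79 in K+-free DMEM. With single arrays left out, *Ccl17* lay 0.31 to 0.45 above control in ouabain and *Ccl22* 0.22 to 0.26. With all arrays the ouabain difference of *Ccl22* was under the fold limit and was not called. *Il4r*, the receptor chain to which STAT6 docks, fell by 0.39 in ouabain (adjusted p = 0.000283).

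Of 24 textbook interferon-induced genes, 2 rose and 5 fell in ouabain, and in K+-free DMEM 7 rose and 2 fell (2 and 8, and 5 and 4, on the *B2m* scale), while 7 were higher and 1 lower in K+-free DMEM than in ouabain. In each treatment the share called in either direction was close to that among all probe sets. Some of the 24 were dim, such as *Isg15*, *Mx1* and *Rsad2* at percentiles 6.01, 5.04 and 4.69 of the probe sets. The transcription factor *Irf1* gave 8.74, 8.65 and 8.69 in control, 9.34, 9.53 and 9.40 in ouabain and 11.98, 11.92 and 11.95 in K+-free DMEM, a rise of 0.73 and of 3.26. *Gbp5*, a guanylate-binding protein of the interferon gamma response, exceeded control by 3.30 in K+-free DMEM, and its difference in ouabain was -0.16. *Cxcl10* rose by 1.46 and 3.92. *Usp18*, which turns off type I interferon receptors, gave 7.99, 8.31 and 8.02 in control and 5.95, 5.75 and 5.69 in K+-free DMEM, a fall of 2.31 (adjusted p = 4.45e-08). In ouabain its difference was -0.22 (adjusted p = 0.154). Median differences in ouabain and K+-free DMEM were 0.36 and 0.72 for the STAT3 targets, 0.36 and 0.44 for those of STAT5, 0.12 and 0.18 for those of STAT6, and 0.02 and 0.13 for the interferon-induced genes.

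**Figure D4:**
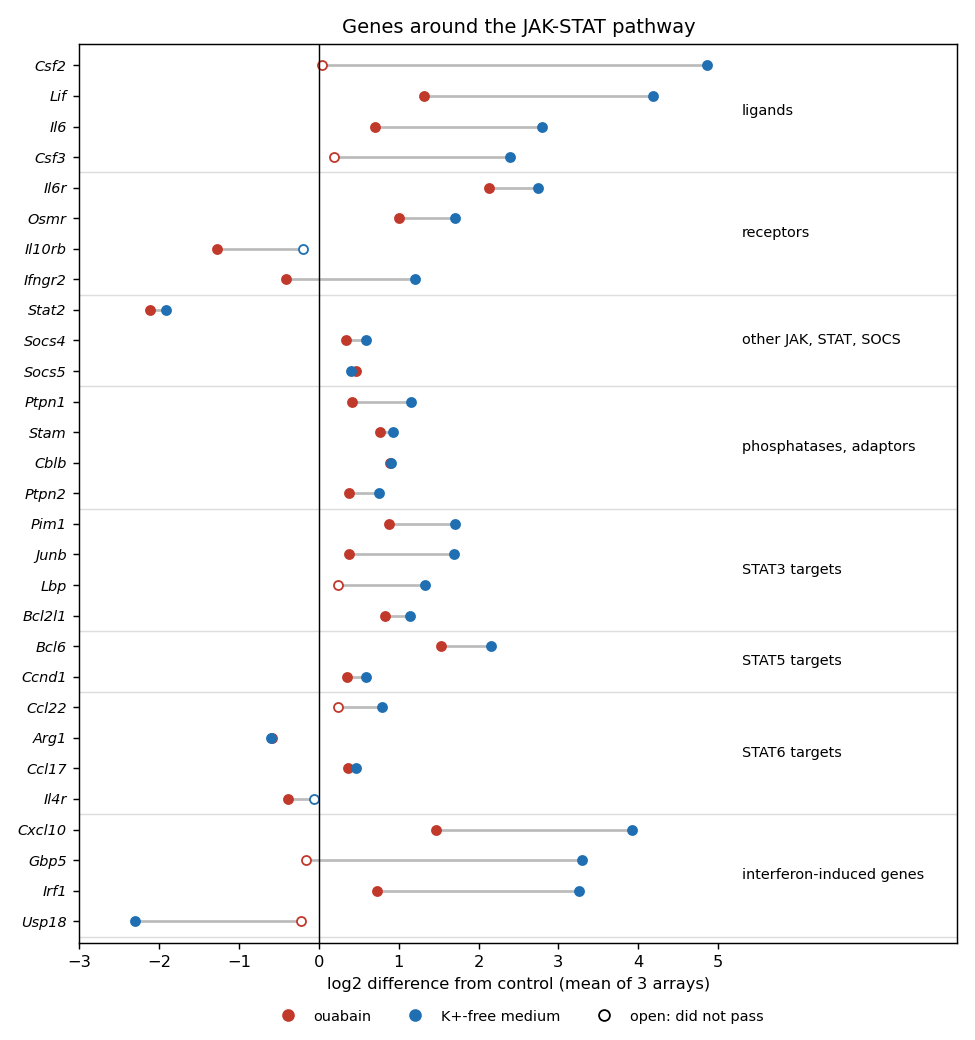
Log2 difference from control in ouabain and K+-free DMEM, as the mean of 3 arrays, of up to 4 genes from each list around the pathway, open where the test was not passed and joined by a grey line for each gene. *Csf2*, *Lif*, *Cxcl10*, *Gbp5* and *Irf1* lie above 3 in K+-free DMEM, while *Stat2* lies near -2 in both treatments and *Usp18* below -2 in K+-free DMEM.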

How the data were processed

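Affymetrix Rat Gene 1.0 ST arrays measured RNA of RASMC under 3 conditions, 3 arrays each. The authors deposited log2 signals of 27342 probe sets, made with RMA. The labels and the methods also name Partek, without versions, and another part of the methods names MAS5 and GeneSpring. Such scaling brings arrays toward a common distribution, so that a shift of all mRNA would not be seen. The deposited signals still differed somewhat in distribution, with a highest value of 14.39 to 14.55 over the arrays. Further quantile normalization therefore moved some of the differences. One legend gives ouabain in another unit, and the labels were followed.

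Probe sets were named with the platform annotation (15097 with 1 symbol, 323 with several, 11922 with none), of which 15067 matched RefSeq gene identifiers. A gene with several probe sets was taken at that with the highest mean. limma 3.58.1 in R 4.3.3 fitted 1 mean per condition over the 9 arrays (empirical Bayes prior 4.59 degrees of freedom, prior SD 0.0815), with Benjamini-Hochberg adjustment over all probe sets, and was checked on simulated data. Exact permutation of 3 against 3 arrays cannot go below p = 0.1. The 10 genes, the gene lists and the tests were chosen with earlier results of these data known. Of each list up to 4 genes were named, those with the largest change from control among those called, and for the 3 genes of widest range the 3 nearest genes. Alternatives covered scaling, filters, the fit, the test, the fold limit, averaging of probe sets and leaving out arrays. Figures were made in Python 3.11.15 (matplotlib 3.10.9).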

Additional observations from a re-analysis of the deposited data

How the results depend on the processing

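For the 10 genes, 3 contrasts and 24 alternatives gave 717 log2 differences, of which 678 kept both direction and side of the threshold, 18 lost the call, 1 gained it and 20 turned in sign, all 20 of them in values that were not called. A fold limit of 1.5 left 4 of the 10 genes called in ouabain, 6 in K+-free medium and 3 between the treatments, and 3924, 4318 and 1149 probe sets. The methods' t-test called 2896 probe sets between the treatments after adjustment, in place of 4491. With the replicate block the genes called stayed at 7, 10 and 6 and the probe sets were 8978, 9352 and 4587. The labels do not say that a number marks a shared experiment. Deviations of arrays correlated at -0.05 to 0.31 for the same number and -0.28 to 0.16 for different numbers, and the numbers were not taken as pairs. Leaving out each array gave 6 to 7, 10 to 10 and 5 to 6 genes, and 8435 to 9701, 8863 to 9525 and 4291 to 4639 probe sets.

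Values near 0 turned in sign. In ouabain on the *B2m* scale these were *Jak2* -0.13, *Socs2* -0.14, *Cish* -0.14, *Csf2* -0.11, *Cyria* -0.0081, *Ccl9* -0.07, *Nfkbie* -0.0355 and *Clec2g* -0.0930, and on the reference genes *Jak2* -0.0583, *Socs2* -0.0622, *Cish* -0.0706, *Csf2* -0.0398 and *Clec2g* -0.0191. After quantile normalization they were *Socs2* -0.0456, *Cish* -0.0144, *Csf2* -0.0231, *Ccl9* -0.0097, *Gbp5* 0.0526, *Loxl4* 0.0445 and *Pdgfra* 0.0755 in ouabain, *Il4r* 0.12 in K+-free medium and *Cblb* -0.0006 between the treatments, where *Arg1* was 0.0197 on the reference genes. Without single arrays, ouabain gave -0.0206 to 0.0903 for *Jak2*, -0.0389 to 0.0618 for *Socs2*, -0.10 to 0.23 for *Cish* and -0.0214 to 0.10 for *Csf2*. Between the treatments the ranges were -0.11 to 0.0218 for *Stat5b*, -0.0751 to 0.0472 for *Arg1* and -0.0041 to 0.0421 for *Cblb*. The cause was not tested. *Socs2* lies in the dimmest 25% of probe sets and gave no value with these left out.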

Other observations

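Some genes of the lists around the pathway, named here after their values were seen, fell in ouabain and rose in K+-free DMEM against the same control arrays. *Gbp2*, a guanylate-binding protein induced by interferon gamma, fell by 0.52 on the log2 scale in ouabain (limma adjusted p = 0.000112) and rose by 1.18 with K+-free DMEM (adjusted p = 1.49e-07), and *Gbp2* differed between the treatments with an adjusted p of 5.65e-08. *Il12a*, the p35 chain of interleukin-12, fell by 0.66 and rose by 0.42, with a difference of 1.08 between the treatments (adjusted p = 2.13e-05). *Irf8*, a transcription factor of the interferon response, fell by 0.48 and rose by 0.30, with a difference of 0.78 (adjusted p = 1.33e-05).

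Of further genes around the pathway, *Tap1*, *Il23a* and *Sh2b3* passed the test against control in K+-free DMEM alone, and *Cntf* in ouabain alone. *Tap1*, the peptide transporter of antigen presentation, rose by 0.99 in K+-free DMEM (adjusted p = 7.85e-07) and exceeded ouabain by 0.92. *Il23a* rose by 0.96 in K+-free DMEM and exceeded ouabain by 0.85 (adjusted p = 2.11e-05). *Sh2b3*, the adaptor LNK that restrains JAK2, rose by 0.67 in K+-free DMEM and exceeded ouabain by 0.82 (adjusted p = 5.92e-06). *Cntf* rose by 0.61 in ouabain (adjusted p = 0.000635) and was lower in K+-free DMEM than in ouabain, with a log2 difference of -0.66 (adjusted p = 0.000901). *Ifnar1*, a chain of the type I interferon receptor, fell in both, by 0.88 in ouabain and by 0.48 with K+-free DMEM.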
